A study of Mus musculus with 24 samples.

Results

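Housing temperature was compared in the livers of male mice whose AT1R-expressing AgRP neurons had been ablated. The comparison used 6 of the 24 libraries of the series, 3 from ablated males kept at 22 °C and 3 from ablated males kept at 30 °C, chosen by the sex, treatment and temperature in their labels with no use of expression values. The study set out to remove the AgRP neurons that carry the angiotensin II type 1 receptor, by an adeno-associated virus with a Cre-dependent caspase 3 placed in the arcuate nucleus of adult mice that make Cre under AT1R control. Mice of both sexes, ablated or control, lived at 22 °C or 30 °C from surgery onward, and livers were collected 2 weeks after surgery.

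The 3 ablated males at 22 °C were all Ai39 x BAC-AT1A-Cre mice of genotype Cre+ Halo+/-. The 3 ablated males at 30 °C came from 3 lines, replicate 1 from Ai39 x BAC-AT1A-Cre (Cre+ Halo+/-), replicate 2 from Ai9 x BAC-AT1A-Cre (Cre+ R+/+) and replicate 3 from BAC-AT1A-Cre (Cre+). Temperature and line therefore cannot be told apart, except through the single Ai39 mouse at 30 °C, and values from Ai39 mice alone are given beside several results. The same temperature contrast was available in control males, 3 at 22 °C and 2 at 30 °C, and in ablated females, 3 at each temperature. Control males at 22 °C were Ai39 x BAC-AT1A-Cre mice, 1 of them Cre+ Halo+/- and 2 Cre- Halo+/-, and those at 30 °C were 1 BAC-AT1A-Cre mouse (Cre+) and 1 Ai39 x BAC-AT1A-Cre mouse (Cre+ Halo+/-). Ablated females at 22 °C were all Ai39 x BAC-AT1A-Cre mice (Cre+ Halo+/-), and those at 30 °C were 2 such mice and 1 Ai9 x BAC-AT1A-Cre mouse (Cre+ R+/-). All mice had free access to chow and water, the manipulation was in the brain, and no level in liver checks how complete the ablation was.

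AgRP neurons drive feeding and restrain energy expenditure. A mouse at ordinary room temperature spends energy to stay warm, whereas near 30 °C it is close to thermoneutral and needs little extra heat. The liver follows feeding time and energy demand through its circadian clock, a loop in which the activators CLOCK and BMAL1 switch on Per, Cry and Nr1d genes whose products feed back on it, and through nuclear receptors such as CAR that set the level of drug-metabolising enzymes, many of them made by hepatocytes around the central vein.

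Depth was 22593219 to 30435107 reads in genes for the 22 °C libraries and 26372094 to 27307665 for the 30 °C libraries. Mitochondrially encoded genes took 18.6% ± 0.804 of reads at 22 °C and 19.2% ± 1.26 at 30 °C (SD, n = 3 each), a difference of -0.598 percentage points (exact two-sided permutation p = 0.5, where 3 against 3 cannot go below 0.1). The typical log2 difference over the 500 most divergent genes was 3.64 to 4.05 between pairs of 22 °C mice, 3.98 to 4.21 between pairs of 30 °C mice and 3.83 to 4.39 across temperatures. Pairs across temperatures were therefore hardly farther apart than mice kept together. All 6 libraries had male levels of the Y-linked Eif2s3y, 69.3, 63.3 and 67.7 CPM (counts scaled to equal library size) at 22 °C and 65.9, 58.6 and 67.7 CPM at 30 °C, and hepatocyte markers summed to 96600 to 123000 CPM at 22 °C and 90500 to 117000 CPM at 30 °C.

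Between 22 °C and 30 °C ablated males 8 genes passed the threshold, 0.0396% of the 20213 genes tested (edgeR quasi-likelihood test, Benjamini-Hochberg adjusted p under 0.05). Lower at 22 °C were 6 of them (0.0297% of genes tested), among them the nuclear receptor gene Nr1i3, the lipid hydrolase gene Abhd6, the alcohol dehydrogenase gene Adh7, the macrophage scavenger receptor gene Cd163, and Nxpe2. The kinase gene Zap70 and the matrix-associated gene Adamtsl2 were higher (2 genes, 0.00989%). Each of the 8 differed by at least 1 on the log2 scale, and in none of them did the 22 °C and 30 °C mice overlap. Library scaling holds the median log2 fold change over all genes near 0, and here it was 0. In all, 1494 genes had an unadjusted p under 0.05, 3.5% of those tested being higher and 3.89% lower.

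Abhd6, whose product hydrolyses monoacylglycerols such as the endocannabinoid 2-arachidonoylglycerol, had 26.3, 20.3 and 26.8 CPM at 22 °C, against 71.6, 66.8 and 58.9 CPM at 30 °C. The groups were tight and far apart, and Abhd6 fell by 1.43 ± 0.21 on the log2 scale (edgeR, SE, adjusted p = 0.0021).

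Nr1i3 encodes CAR, the constitutive androstane receptor, which switches on cytochrome P450 genes in response to drugs and bilirubin. Its level was 35, 25.6 and 32.8 CPM in 22 °C mice and 96.3, 124 and 72.1 CPM in 30 °C mice. None of the mice at 22 °C reached the lowest at 30 °C, and Nr1i3 fell by 1.64 ± 0.28 (edgeR, SE, adjusted p = 0.0133). Adh7, the class of alcohol dehydrogenase that also oxidises retinol, had 32, 42.5 and 28.8 CPM at 22 °C, against 69.8, 64.5 and 73.8 CPM at 30 °C. It fell by 1.01 ± 0.19 (edgeR, SE, adjusted p = 0.0169), the smallest fold among the 8. Nxpe2 had 6.26, 5.52 and 8.87 CPM at 22 °C and 15.3, 22.1 and 28 CPM at 30 °C, and fell by 1.66 ± 0.27 (edgeR, SE, adjusted p = 0.00794). Its 30 °C values spread more widely than its 22 °C values, without reaching them.

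Cd163, the receptor by which macrophages take up haemoglobin bound to haptoglobin, had the largest fold of the 8. It was at 1.26, 2.15 and 1.13 CPM in 22 °C mice, against 13.4, 5.89 and 3.65 CPM in 30 °C mice, a log2 fold change of -2.34 ± 0.43 (edgeR, SE, adjusted p = 0.0169). The 30 °C values were spread widely, highest in the Ai39 mouse and lowest in the BAC-AT1A-Cre mouse. Zap70, a kinase that T and NK cells use behind their antigen receptors, had 17.6, 19.6 and 17.2 CPM at 22 °C, against 3.25, 5.09 and 6.04 CPM at 30 °C. It rose by 1.92 ± 0.35 (edgeR, SE, adjusted p = 0.0157), while the summed lymphocyte markers overlapped at 64.9, 64.1 and 33.7 CPM at 22 °C and 52.9, 34.6 and 43.6 CPM at 30 °C. Adamtsl2, which encodes a secreted protein that binds matrix microfibrils, had 27.5, 39.4 and 28.5 CPM at 22 °C, against 12.2, 5.97 and 6.69 CPM at 30 °C, and rose by 1.94 ± 0.34 (edgeR, SE, adjusted p = 0.0157).

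**Figure D1:**
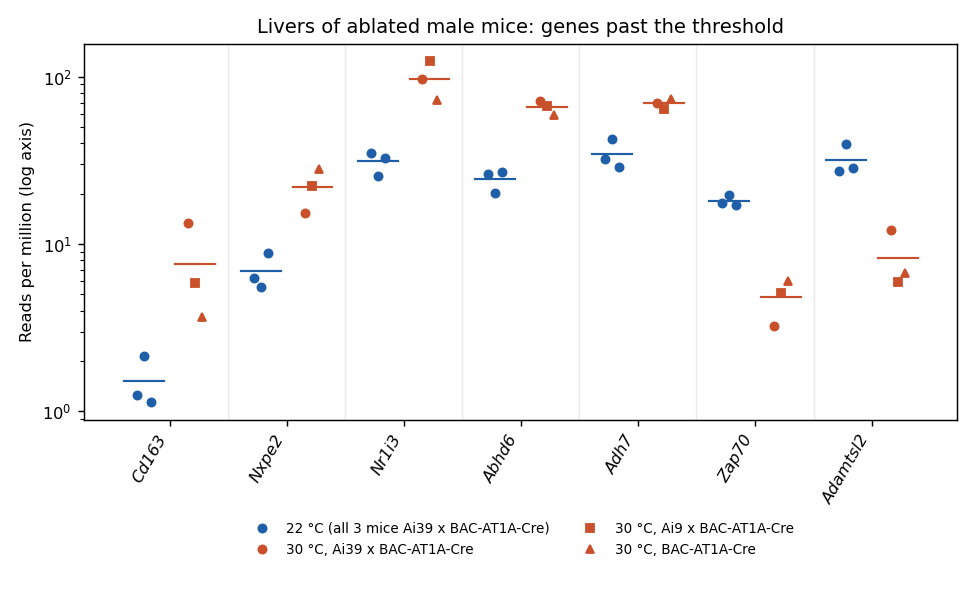
Level in CPM (log axis) of 7 genes past the threshold in livers of ablated males, each point a mouse and each line a group mean, with 22 °C on the left of each pair and the line of each 30 °C mouse shown by its symbol. In all 7 genes the 3 points at 22 °C and the 3 at 30 °C do not overlap.

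In GRCm39, the build of the files, Abhd6 lies at chr14:14413010-14466871 (minus strand), Nr1i3 at chr1:171041539-171048270 (plus), Adh7 at chr3:137923521-137939143 (plus), Nxpe2 at chr9:48229306-48264754 (minus), Cd163 at chr6:124281615-124307486 (plus), Zap70 at chr1:36800879-36821899 (plus) and Adamtsl2 at chr2:26969391-26998993 (plus). All of these are protein-coding. Abhd6, Zap70 and Adamtsl2 overlapped no other annotated gene. The remaining 4 did, Nr1i3 with Tomm40l and Nxpe2 with Nxpe4 among them, and the labels do not say whether strand was used in counting, so reads of such partners could be mixed.

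The calls rested on few mice. Without 22 °C replicate 2 no gene passed the threshold, and Abhd6 was then at an edgeR adjusted p of 0.0583. Without 22 °C replicate 1, 2 genes passed, Abhd6 being the only one of the 8, and without 22 °C replicate 3, 40 passed, with Adh7 and Cd163 lost. Leaving out 30 °C replicate 1 ended the calls of Zap70, Adh7 and Cd163, leaving out replicate 2 those of Nr1i3, Zap70 and Adamtsl2, and leaving out replicate 3, with 13 genes passing, those of Adamtsl2 and Adh7. Without 30 °C control male 1, which is in neither group compared, 33 genes passed, the 8 among them. That library enters the filter on low counts, the scaling and the estimate of spread, and their parts were not tested. The log2 fold change stayed between -1.55 and -1.31 for Abhd6 and between -1.82 and -1.43 for Nr1i3 over all settings tried.

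When only Ai39 x BAC-AT1A-Cre mice were used, the 22 °C group stood against a single 30 °C mouse, assumed to vary like the other groups. The log2 fold changes were then -1.55 for Abhd6, -1.63 for Nr1i3, -3.15 for Cd163, -1.14 for Nxpe2, -1.02 for Adh7, 2.48 for Zap70 and 1.38 for Adamtsl2. That mouse is 1 of the 3 at 30 °C behind the calls, and in none of the 8 genes did the groups overlap. Their direction was therefore fixed in advance, and only the size of the values is informative.

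Among genes just outside the threshold, the lysosomal sulfatase gene Arsg had 26.9, 24.8 and 31.3 CPM at 22 °C and 10.4, 12 and 16.8 CPM at 30 °C (log2 fold change 1.08, edgeR adjusted p = 0.0537). The Wnt receptor gene Fzd4 was at 26.4, 20.3 and 27.6 CPM at 22 °C, against 56.4, 59.1 and 40.8 CPM at 30 °C (-1.07, edgeR adjusted p = 0.0537). Both sets of values are separated by temperature. The mitochondrial transcription factor gene Mterf3 had 19.2, 18.8 and 18.7 CPM in 22 °C mice and 28.8, 40 and 36.2 CPM in 30 °C mice (-0.89, edgeR adjusted p = 0.0556). Chd3, a chromatin remodeller of the NuRD complex, averaged 158 ± 28.9 CPM at 22 °C and 319 ± 85.1 CPM at 30 °C (SD, n = 3 each; -1.01). The tubulin gene Tubb2a had 89.2, 113 and 25.8 CPM at 22 °C and 13.5, 8.09 and 11.8 CPM at 30 °C, a log2 fold change of 2.77 for which 22 °C replicate 3 was far below the other two. Nudt18, which encodes a hydrolase of oxidised nucleotides, had 15.9, 22.3 and 16 CPM at 22 °C, against 7.05, 7.36 and 5.95 CPM at 30 °C (1.41). In Tubb2a and Nudt18 no 22 °C value reached down to the 30 °C values.

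Further down the same ranking, the steroid 17-alpha-hydroxylase gene Cyp17a1 had 10.2, 37.4 and 39.3 CPM at 22 °C and 5.57, 7.61 and 8.79 CPM at 30 °C (log2 fold change 1.98, edgeR adjusted p = 0.0556). Its lowest 22 °C mouse was near the 30 °C range. Ntrk2, the BDNF receptor, had 6.42, 13.3 and 3.36 CPM at 22 °C and 0.145, 0.549 and 1.85 CPM at 30 °C (3.19, and 5.69 with Ai39 mice alone). The neural gene Npdc1 had 12.7, 22 and 7.67 CPM at 22 °C against 4.01, 4.58 and 5.09 CPM at 30 °C (1.63). In neither did the groups overlap. Crip2, a LIM-domain gene, had 58.6, 62.5 and 52.5 CPM at 22 °C against 36.4, 31 and 29.4 CPM at 30 °C (0.84). Enpep, the aminopeptidase A that trims angiotensin II, was lower at 22 °C, with 19.2, 26 and 43.8 CPM, against 53.6, 50.7 and 85.7 CPM at 30 °C (-1.09, edgeR adjusted p = 0.0556).

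Core clock and clock-output genes were lower at 22 °C in many members. Of the 22 clock genes tested 10 were lower in every 22 °C mouse than in every 30 °C mouse, 45.5% of the list, beside 6.78% of all genes tested. Another 3, 13.6% of the list, were higher in every 22 °C mouse, beside 7.38% of all genes. These shares of all genes are the background for the counts of the other lists too. The median log2 fold change of the list was -0.47, and the median of all genes 0. Leaving out any 1 mouse of the 6, or 30 °C control male 1, gave list medians of -0.57 to -0.43, and Ai39 mice alone gave -0.39.

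Usp2, a deubiquitinase whose message cycles with the clock, had 18.9, 11.3 and 44.8 CPM at 22 °C, against 89.6, 79.7 and 68.4 CPM at 30 °C (log2 fold change -1.66 ± 0.34 SE, edgeR adjusted p = 0.0556). The period gene Per3 had 74.3, 38.4 and 110 CPM at 22 °C and 132, 144 and 162 CPM at 30 °C (-0.97, edgeR adjusted p = 0.162). Hlf, a PAR-bZIP activator that binds D-boxes, had 23.2, 22.5 and 34 CPM at 22 °C, against 37.7, 51.3 and 52 CPM at 30 °C (-0.82, edgeR adjusted p = 0.152, and -0.5 with Ai39 mice alone). In all 3 genes 22 °C replicate 3 was the 22 °C mouse closest to the 30 °C group. Per2 was ordered the same way, at 60.9, 32.7 and 92 CPM at 22 °C, against 116, 134 and 119 CPM at 30 °C. The repressor gene Cry1 was lower too, at 2.23, 3.03 and 5.44 CPM at 22 °C, against 8.02, 8.46 and 7.39 CPM at 30 °C. Without 22 °C replicate 3, Usp2 and Per3 passed the threshold, at log2 fold changes of -2.39 and -1.37 (edgeR adjusted p = 2.98e-05 and 0.023).

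Nampt, the rate-limiting enzyme of NAD salvage, had 46.8, 36.9 and 49.2 CPM at 22 °C and 96.4, 49.6 and 75.6 CPM at 30 °C, so that the groups nearly met. Rora, Nr1d2 and the cell-cycle kinase gene Wee1 were also lower in every 22 °C mouse, with log2 fold changes of -0.42 for Rora, -0.29 for Nr1d2 and -0.58 for Wee1. In Per1, with 21.2, 22.1 and 55.7 CPM at 22 °C and 73.1, 65.8 and 51.8 CPM at 30 °C, 22 °C replicate 3 fell within the 30 °C range. Ciart, a further clock repressor gene, was alike with 12.8, 6.36 and 42 CPM at 22 °C, against 48.1, 35.3 and 37.8 CPM at 30 °C. The 3 genes in the other direction were Nr1d1, Clock and Noct. Nr1d1, which encodes the repressor REV-ERBα, was at 160, 141 and 166 CPM at 22 °C, against 95.9, 94.3 and 104 CPM at 30 °C (0.66, edgeR adjusted p = 0.353). Clock was at 22.1, 19.3 and 18.2 CPM at 22 °C, against 10.9, 14.8 and 13.4 CPM at 30 °C. Noct, a deadenylase-like phosphatase with a strong daily rhythm in liver, had 142, 256 and 242 CPM at 22 °C, against 26, 54.5 and 57 CPM at 30 °C (2.22, edgeR adjusted p = 0.473). Dbp, one of the most rhythmic liver genes, overlapped at 194, 157 and 269 CPM at 22 °C and 222, 202 and 218 CPM at 30 °C. The labels give no hour of sampling, so its part in these values was not tested.

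**Figure D2:**
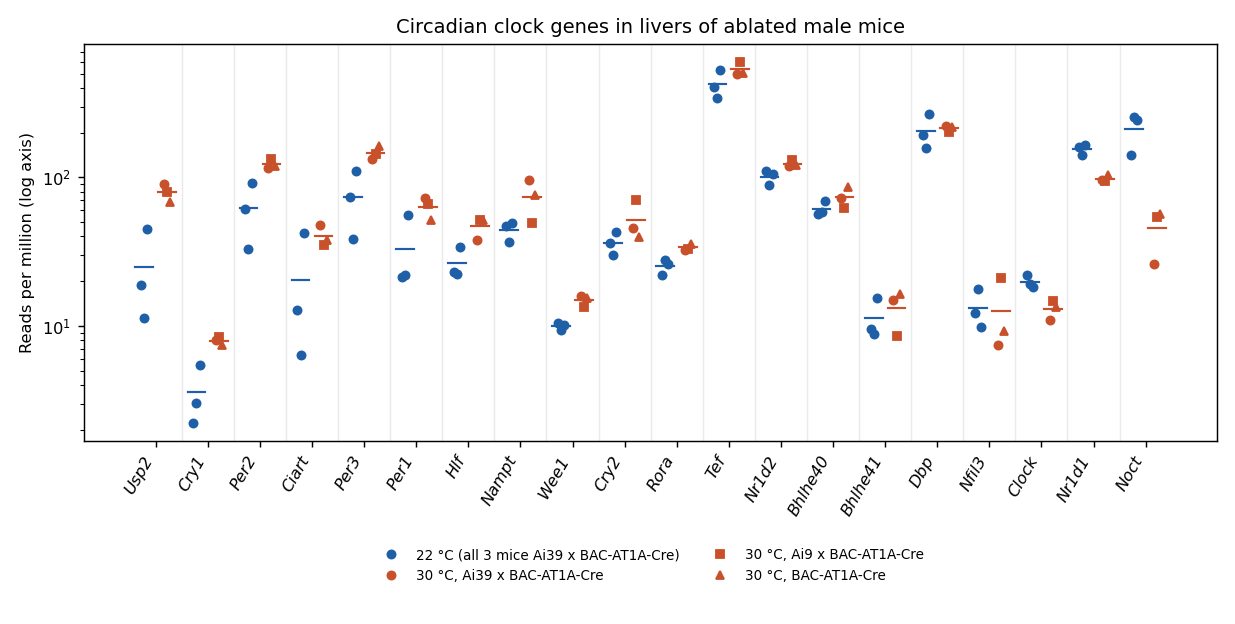
Level in CPM (log axis) of 20 clock genes in ablated males, ordered by log2 fold change, each point a mouse, each line a group mean, 22 °C left of 30 °C (Npas2, with a value of 0, is left out). Genes from Usp2 to Wee1 are mostly lower at 22 °C, Nr1d1, Clock and Noct are higher, and 22 °C replicate 3 is often the 22 °C point nearest the 30 °C group.

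Promoter sequence is shown for the called receptor Nr1i3 and for 3 clock genes that were lower in every 22 °C mouse, to set the letters of clock and cAMP motifs beside the values. The windows run 250 bases up to the RefSeq start in GRCm38.p6, another build than that of the files, 5′ to 3′ on the gene's strand, with the letters of each motif found in capitals. They lie at chr1:171213720-171213969 (plus) for Nr1i3, chr10:85185055-85185304 (minus) for Cry1, chr4:151044666-151044915 (minus) for Per3 and chr11:90390918-90391167 (minus) for Hlf.
Nr1i3: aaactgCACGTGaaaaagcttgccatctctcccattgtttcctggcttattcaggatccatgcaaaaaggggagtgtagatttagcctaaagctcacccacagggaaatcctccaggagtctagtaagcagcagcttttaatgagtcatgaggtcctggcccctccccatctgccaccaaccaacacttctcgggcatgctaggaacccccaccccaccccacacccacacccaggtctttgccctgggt
Cry1: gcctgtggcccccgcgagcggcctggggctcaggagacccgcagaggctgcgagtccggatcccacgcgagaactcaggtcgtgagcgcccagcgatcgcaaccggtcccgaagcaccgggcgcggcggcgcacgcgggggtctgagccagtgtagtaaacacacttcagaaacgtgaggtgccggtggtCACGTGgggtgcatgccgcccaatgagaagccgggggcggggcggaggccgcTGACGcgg
Per3: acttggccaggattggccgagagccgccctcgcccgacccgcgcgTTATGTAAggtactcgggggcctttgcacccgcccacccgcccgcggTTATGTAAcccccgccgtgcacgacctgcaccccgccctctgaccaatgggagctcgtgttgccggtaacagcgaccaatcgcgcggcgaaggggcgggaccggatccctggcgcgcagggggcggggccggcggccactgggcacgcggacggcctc
Hlf: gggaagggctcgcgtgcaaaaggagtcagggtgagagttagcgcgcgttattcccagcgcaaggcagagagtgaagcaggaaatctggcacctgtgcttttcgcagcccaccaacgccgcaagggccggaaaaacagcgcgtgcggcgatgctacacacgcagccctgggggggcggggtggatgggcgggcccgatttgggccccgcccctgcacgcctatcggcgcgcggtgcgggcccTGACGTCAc

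Nr1i3 holds an E-box (CACGTG, the motif of CLOCK and BMAL1) at position -244 from the start, and Cry1 holds one at -60. Per3 holds a pair of D-boxes (TTATGTAA, the motif of DBP, TEF and HLF), at -205 and -158, and Hlf holds a cAMP response element (TGACGTCA) at -9. Both strands were searched, and each cAMP response element also contains the shorter TGACG. That short form stands alone in Cry1 at -8 and in Nampt at -135. Among 32851 RefSeq windows of this length, 6.02% hold the E-box, 0.819% the D-box, 1.55% the full cAMP response element and 17.8% the short form. The heat shock motif GAANNTTC (6.69% of windows) was in Adh7, the antioxidant motif TGACNNNGC (10.2%) in a window of Zap70, which held the full cAMP response element in another window, and the PPAR direct repeat (0.0335%) in none of those searched. The 7 called genes named here had 10 windows, and 7 of the 10 clock genes had 7 windows. Each window shown above was taken from those with a motif. The windows of Abhd6, Adamtsl2, Cd163, Nxpe2, Rora, Nr1d2 and Usp2 held none of the 7 motifs. A match is a description of letters, not a binding site.

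Drug-metabolising cytochrome P450 genes of families 1 to 3 were lower at 22 °C or overlapped. None of the 40 tested was called, 14 (35%) were lower in every 22 °C mouse and 0 were higher in every one, beside 6.78% and 7.38% of all genes. The list's median log2 fold change was -0.41. Cyp2c37 had 47.4, 20.6 and 97.6 CPM at 22 °C, against 360, 517 and 340 CPM at 30 °C (-2.88 ± 0.56 SE, edgeR adjusted p = 0.0582). Cyp1a2, the enzyme that clears caffeine, had 288, 205 and 393 CPM at 22 °C, against 693, 744 and 1020 CPM at 30 °C (-1.47, edgeR adjusted p = 0.08). Neither pair of groups overlapped. Cyp2c50 had 139, 115 and 182 CPM at 22 °C, against 360, 701 and 501 CPM at 30 °C. Cyp2c54 had 124, 57 and 158 CPM at 22 °C, against 371, 800 and 396 CPM at 30 °C. These Cyp2c genes are close copies of each other, and reads could have been split between them by the authors' counting.

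Cyp2b10, the classic target gene of CAR, was low in all 6 livers, at 0.315, 0.337 and 0 CPM at 22 °C and 1.3, 2.86 and 1.4 CPM at 30 °C. Cyp2b9, by contrast, differed among the 30 °C mice themselves. It had 3.33, 2.99 and 1.2 CPM at 22 °C and 90.6, 36 and 3.08 CPM at 30 °C, high in the Ai39 and Ai9 mice and at the 22 °C level in the BAC-AT1A-Cre mouse. The female-biased Cyp2c40, at 1.48, 0.126 and 0.651 CPM at 22 °C, against 51.9, 5.71 and 11.7 CPM at 30 °C, was likewise highest in the Ai39 mouse (-4.88 ± 0.95 SE, edgeR adjusted p = 0.0582). Cyp2c69, a further female-biased member, had 0.377, 0.843 and 0.342 CPM at 22 °C, against 13.8, 3.11 and 2.67 CPM at 30 °C. Of 32 female-biased liver genes tested, 4 (12.5%) were lower in every 22 °C mouse and 2 (6.25%), Cyp17a1 among them, were higher. The median of that list was -0.07, and -0.99 with Ai39 mice alone. Of 29 male-biased liver genes tested, 1 (3.45%) was lower in every 22 °C mouse and 0 were higher. Their median was -0.44, from -0.79 to 0.03 with 1 library left out, and 0.72 with Ai39 mice alone. Cyp3a11, the main inducible enzyme of family 3, overlapped at 699, 655 and 556 CPM at 22 °C and 811, 538 and 578 CPM at 30 °C. The shared electron donor gene Por overlapped too, at 199, 164 and 303 CPM at 22 °C and 306, 294 and 223 CPM at 30 °C.

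Genes of hepatocytes around the central vein lay below their 30 °C values as a group. Of the 24 pericentral genes tested 12, 50%, were lower in every 22 °C mouse, beside 6.78% of all genes, 0 were higher in every one, 23 of 24 had a negative log2 fold change and the median was -0.71. None was called. The P450 genes Cyp1a2, Cyp2a5, Cyp2c37, Cyp2c50, Cyp2c54 and Cyp2e1 are in both lists and all of them are among the 12, so the lists are not independent. Glul, the glutamine synthetase that marks the hepatocytes next to the vein, had 254, 152 and 405 CPM at 22 °C, against 464, 473 and 669 CPM at 30 °C (-0.99, edgeR adjusted p = 0.482). Aldh1a1, a retinal dehydrogenase, had 373, 355 and 310 CPM at 22 °C, against 493, 619 and 584 CPM at 30 °C. Cyp2e1, the ethanol-oxidising P450, had 2650, 1830 and 3330 CPM at 22 °C, against 3950, 3640 and 3670 CPM at 30 °C. Both were separated by temperature, with 22 °C replicate 3 near the 30 °C group for Cyp2e1. The Wnt feedback ligase gene Znrf3 was at 5.6, 7.67 and 7.16 CPM at 22 °C, against 8.57, 10.6 and 16.1 CPM at 30 °C. The Wnt inactivator gene Notum was at 38.9, 37.4 and 43.6 CPM at 22 °C, against 50.2, 55.6 and 48.2 CPM at 30 °C. Axin2, another Wnt target, was the member with a positive value, 0.19, and its groups overlapped at 14.5, 10.4 and 16.3 CPM at 22 °C and 8.24, 19.5 and 8.38 CPM at 30 °C.

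Periportal genes were higher at 22 °C or overlapped. Of 20 tested 4, 20%, were higher in every 22 °C mouse, beside 7.38% of all genes, 0 were lower in every one and the median was 0.25. Sdsl, related to serine dehydratase, had 22.2, 22.8 and 20.4 CPM at 22 °C, against 10.6, 11.1 and 11.3 CPM at 30 °C (0.99, edgeR adjusted p = 0.232). Histidase, Hal, had 379, 499 and 449 CPM at 22 °C, against 214, 333 and 344 CPM at 30 °C. The adhesion gene Cdh1 was at 42.4, 53.9 and 39.8 CPM at 22 °C, against 14.6, 12.5 and 25.8 CPM at 30 °C. Albumin overlapped at 49800, 65000 and 66400 CPM at 22 °C and 66700, 49800 and 65400 CPM at 30 °C (Alb, log2 fold change -0.01). With Ai39 mice alone, which leaves a single 30 °C mouse, the median was -0.28 for pericentral and 0.5 for periportal genes. The periportal median was 0.06 without that 30 °C mouse and 0.11 without 22 °C replicate 3. Leaving out any single mouse kept the pericentral median between -0.87 and -0.56.

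**Figure D3:**
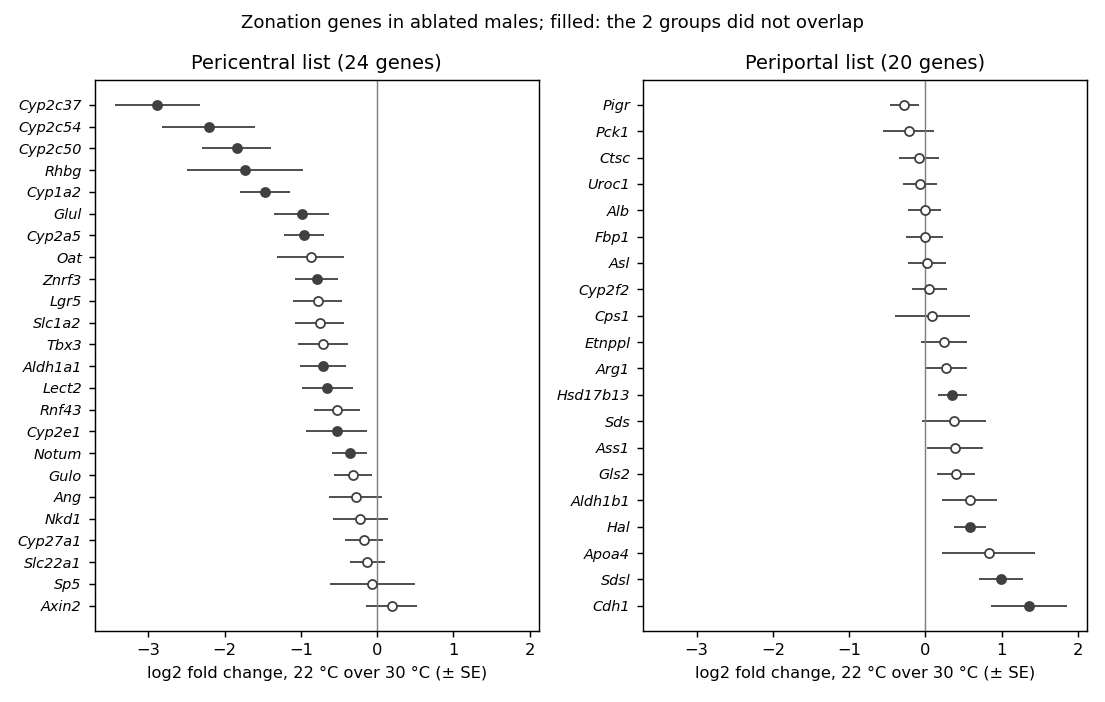
Log2 fold change (22 °C over 30 °C, ± SE) of pericentral and periportal genes in ablated males, 3 mice at each temperature, with filled points where the 22 °C and 30 °C mice did not overlap. Pericentral genes lie to the left of 0 except Axin2, and periportal genes lie on both sides.

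Some conjugating enzymes and transporters were lower at 22 °C. Of 43 phase II and NRF2 target genes 9 (20.9%) were lower in every 22 °C mouse and 3 (6.98%) higher. The median was -0.12, and it was 0.1 without 30 °C replicate 3 and -0.26 without 30 °C replicate 2. Sult1d1, a sulfotransferase, had 132, 114 and 146 CPM at 22 °C, against 173, 272 and 279 CPM at 30 °C (-0.88, edgeR adjusted p = 0.0735). The glutathione transferase gene Gsta3 had 456, 372 and 510 CPM at 22 °C, against 588, 794 and 777 CPM at 30 °C. Of 25 uptake and efflux transporters 5 (20%) were lower and 2 (8%) higher. The hepatic uptake carrier Slco1b2 was lower, at 385, 290 and 463 CPM at 22 °C, against 653, 767 and 822 CPM at 30 °C (-0.98, edgeR adjusted p = 0.0655). The organic anion carrier Slc22a7 had 9.66, 8.34 and 16.1 CPM at 22 °C, against 34.4, 38.5 and 55 CPM at 30 °C. The highest 22 °C value was well below the lowest 30 °C value. Of 25 bile acid genes 4 (16%) were lower and 1 (4%) higher. Cyp7a1, the rate-limiting enzyme of bile acid synthesis, overlapped at 78.9, 72.9 and 143 CPM at 22 °C and 63.8, 136 and 142 CPM at 30 °C (-0.22 ± 0.49 SE). The export pump gene Abcb11 overlapped at 516, 523 and 496 CPM at 22 °C and 350, 472 and 542 CPM at 30 °C.

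Secreted liver factors were mixed, 6 of 27 hepatokine genes (22.2%) being higher in every 22 °C mouse and 3 (11.1%) lower. Fgf21, the hepatokine raised by fasting and protein restriction, had 8.33, 4.38 and 6.64 CPM at 22 °C, against 1.12, 0.586 and 1.72 CPM at 30 °C. The groups did not overlap, and the log2 fold change of 2.5 ± 0.98 was not past the threshold (edgeR, SE, adjusted p = 0.577). Hepcidin, Hamp, which limits iron release, was at 2770, 2870 and 3160 CPM at 22 °C, against 1190, 1330 and 2410 CPM at 30 °C. Its paralog Hamp2 was at 9.81, 13.2 and 15 CPM at 22 °C, against 102, 33.9 and 39.8 CPM at 30 °C. Bmp6, the signal that induces hepcidin, had 2.14, 4.21 and 4.25 CPM at 22 °C, against 0.325, 0.696 and 1.77 CPM at 30 °C. All 3 iron-linked genes were separated by temperature. Tsku, a hepatokine, was lower at 16.9, 17 and 38.7 CPM at 22 °C, against 71.6, 161 and 158 CPM at 30 °C (-2.43, edgeR adjusted p = 0.191). Igf1 overlapped at 742, 875 and 1010 CPM at 22 °C and 749, 840 and 1080 CPM at 30 °C (-0.02 ± 0.2 SE).

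Among lists of at least 12 tested genes, lipid droplet genes had the highest share of members above their 30 °C values, 7 of 16 (43.8%), with 1 (6.25%) lower and a median of 0.32. Perilipin 2, Plin2, which coats droplets, had 353, 246 and 227 CPM at 22 °C, against 199, 160 and 216 CPM at 30 °C. Plin4, another droplet coat gene, had 17.9, 25.9 and 15 CPM at 22 °C, against 12.2, 9.48 and 6.49 CPM at 30 °C. Lipoprotein lipase, Lpl, was at 102, 124 and 75.3 CPM at 22 °C, against 58, 27.3 and 22.6 CPM at 30 °C (1.48, edgeR adjusted p = 0.599). Lpl, Fabp4 and Cidec are also fat cell markers, and all 3 were higher in every 22 °C mouse. These 3 are 50% of the 6 fat cell markers tested, of which 4 had a positive log2 fold change and 1 a negative one (-1.43). Another of them, Adrb3, overlapped at 84.7, 60.4 and 89 CPM at 22 °C and 50.8, 94.8 and 49.8 CPM at 30 °C. The 10 fat cell markers in the files summed to 181 to 222 CPM at 22 °C and 86.7 to 131 CPM at 30 °C, while the defining genes Adipoq, Lep, Plin1 and Retn were at 0 in all 6 libraries. The part of fat cells in these values was not tested. Fatty acid oxidation genes and PPAR-alpha targets, 5 of 40 (12.5%) higher and 2 (5%) lower, were closer to the background. Plin2 is among the higher members of this list too. Pdk4, which shuts glucose out of oxidation, was at 3.87, 6.07 and 4.04 CPM at 22 °C, against 0.759, 1.98 and 0.37 CPM at 30 °C. In fatty acid synthesis 4 of 31 (12.9%) were higher and 2 (6.45%) lower. There the elongase Elovl6 was at 89.8, 106 and 136 CPM at 22 °C, against 206, 170 and 287 CPM at 30 °C. Srebf1, the regulator of the pathway, was at 406, 362 and 600 CPM at 22 °C, against 296, 293 and 342 CPM at 30 °C. Fatty acid synthase, Fasn, overlapped at 330, 396 and 693 CPM at 22 °C and 425, 289 and 718 CPM at 30 °C.

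Glycolysis and fructose genes split evenly, 3 of 22 (13.6%) higher and 3 lower. Ketohexokinase, Khk, which starts fructose use, had 283, 267 and 360 CPM at 22 °C, against 517, 437 and 529 CPM at 30 °C (-0.71, edgeR adjusted p = 0.304). Pck1, the gluconeogenic control enzyme, overlapped at 1270, 1950 and 2130 CPM at 22 °C and 1480, 2870 and 1890 CPM at 30 °C (-0.22 ± 0.33 SE).

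Matrix and stellate cell genes leaned upward at 22 °C with large spread between mice. In all, 8 of 34 collagen and matrix genes (23.5%) and 6 of 20 stellate and mural markers (30%) were higher in every 22 °C mouse, 0 were lower in every one in either list, and none was called. The medians were 0.99 and 1.06, and 31 of 34 matrix genes had a positive value. Biglycan, Bgn, a matrix proteoglycan, had 76.8, 93.3 and 61.3 CPM at 22 °C, against 36.9, 15.8 and 23.3 CPM at 30 °C (1.6 ± 0.42 SE, edgeR adjusted p = 0.19). Col6a3, a collagen VI chain, had 21.9, 40.5 and 20 CPM at 22 °C, against 14.3, 9.96 and 4.8 CPM at 30 °C. The PDGF receptor of mural cells, Pdgfrb, was at 19.5, 26.6 and 17.1 CPM at 22 °C, against 10.3, 6.88 and 7.84 CPM at 30 °C. In these 3 genes the groups did not overlap. In Col1a1, a fibrillar collagen gene, the Ai39 mouse at 30 °C was among the 22 °C mice, with 31.3, 47.9 and 18.1 CPM at 22 °C and 31.4, 5.89 and 4.07 CPM at 30 °C. With Ai39 mice alone the medians were 0.3 for matrix and 0.16 for stellate genes, and without the Ai39 mouse at 30 °C they were 1.57 and 1.54. Stellate and mural markers summed to 469, 557 and 366 CPM at 22 °C and 432, 197 and 217 CPM at 30 °C. In bulk liver, fewer cells of a type and less RNA per cell cannot be told apart.

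Bile duct markers had 2 of 13 (15.4%) higher in every 22 °C mouse. Sox9, a transcription factor of duct cells and some periportal hepatocytes, had 11.5, 8.93 and 6.68 CPM at 22 °C, against 1.73, 3.59 and 2.09 CPM at 30 °C (1.87 ± 0.44 SE, edgeR adjusted p = 0.0811). The duct keratin Krt19 overlapped at 4.37, 5.94 and 1.16 CPM at 22 °C and 2.75, 1.54 and 0.78 CPM at 30 °C. The epithelial adhesion gene Epcam also overlapped, at 4.81, 7 and 0.822 CPM at 22 °C and 3.29, 3.11 and 0.411 CPM at 30 °C. The summed duct markers overlapped at 342, 371 and 179 CPM at 22 °C and 265, 218 and 181 CPM at 30 °C. Endothelial markers, with 4 of 20 (20%) higher and 1 (5%) lower, summed to 450, 477 and 426 CPM at 22 °C and 426, 413 and 350 CPM at 30 °C, and included Lyve1, a hyaluronan receptor of sinusoidal endothelium, at 5.1, 4 and 4.18 CPM at 22 °C, against 1.23, 0.439 and 0.821 CPM at 30 °C.

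Macrophage markers other than Cd163 were mixed. Of 21 tested Cd163 was the only one called and the only one lower in every 22 °C mouse (4.76%), 2 (9.52%) were higher in every one, and the median was 0.58. That median turned on single mice, being 0.08 without 22 °C replicate 2, 0.97 without 22 °C replicate 3, 1.43 without 30 °C replicate 1 and 0.24 without 30 °C replicate 2, and it was -0.22 with Ai39 mice alone. The resident Kupffer cell genes Clec4f and Vsig4 overlapped. Clec4f had 104, 81.4 and 43.4 CPM at 22 °C and 143, 78.3 and 68.1 CPM at 30 °C. Vsig4 had 6.38, 3.88 and 2.4 CPM at 22 °C and 9.54, 3.04 and 4.48 CPM at 30 °C. Markers of recruited monocytes had higher values in 22 °C replicates 1 and 2 than in the third 22 °C mouse. Cx3cr1, the fractalkine receptor gene, had 7.52, 7.12 and 1.2 CPM at 22 °C and 0.506, 1.24 and 0.205 CPM at 30 °C. Lyz2, a lysozyme, had 28.3, 34.3 and 9 CPM at 22 °C and 16.1, 3.55 and 9.36 CPM at 30 °C. The integrin gene Itgax had 10.2, 6.07 and 2.36 CPM at 22 °C and 4.26, 1.83 and 1.03 CPM at 30 °C. Each of these overlapped between temperatures. The chemokine receptor Ccr2 did not, at 6.29, 8.55 and 3.32 CPM at 22 °C, against 2.89, 1.13 and 2.3 CPM at 30 °C. The summed macrophage markers were 335, 327 and 115 CPM at 22 °C and 379, 158 and 175 CPM at 30 °C, and the part of cell content in the Cd163 result was not tested.

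MHC class II genes of antigen-presenting cells followed the same 2 mice. H2-Ab1 had 57.6, 57 and 17.1 CPM at 22 °C and 26.6, 13.9 and 12.5 CPM at 30 °C. Cd74, their invariant chain, had 128, 145 and 36.7 CPM at 22 °C and 72.1, 24 and 27 CPM at 30 °C. In both genes 22 °C replicate 3 was in the 30 °C range. The interferon and MHC list as a whole, with 5 of 43 (11.6%) higher and 2 (4.65%) lower, was near the background. The class I gene H2-K1 was 1 of the lower members, at 1360, 1360 and 1210 CPM at 22 °C, against 1950, 1800 and 1760 CPM at 30 °C.

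Globin messages were lower at 22 °C. Of 12 erythroid genes 3 (25%) were lower in every 22 °C mouse, 0 were higher, and the median was -1.83. Hbb-bs had 19.1, 21.3 and 23.9 CPM at 22 °C, against 245, 113 and 51.1 CPM at 30 °C (-2.67 ± 0.56 SE, edgeR adjusted p = 0.0811). Hba-a1 had 66.8, 64.9 and 62.8 CPM at 22 °C, against 505, 155 and 79.4 CPM at 30 °C. The 22 °C mice were nearly equal and the 30 °C mice differed widely, highest in the Ai39 mouse, with 1 mouse of each line. Without that mouse the list's median was -0.75, with the 2 groups alone it was -1.06, and with Ai39 mice alone -2.86. Globin genes are near-identical copies, and summed erythroid markers were 286, 269 and 287 CPM at 22 °C, against 1050, 494 and 370 CPM at 30 °C. Haem synthesis genes that hepatocytes also use overlapped, as in Fech with 103, 103 and 112 CPM at 22 °C and 95.9, 120 and 123 CPM at 30 °C.

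Acute phase genes were higher at 22 °C in 8 of 34 members (23.5%) and lower in 1 (2.94%). The median was 0.19, and it was 0.12 without 30 °C replicate 2 and 0.06 with Ai39 mice alone. Serum amyloid A 2, Saa2, had 85, 43.5 and 19.9 CPM at 22 °C, against 15, 3.62 and 7.23 CPM at 30 °C (2.52 ± 0.84 SE, edgeR adjusted p = 0.444). Hemopexin, Hpx, which binds free haem, had 3720, 4200 and 3080 CPM at 22 °C, against 2240, 1460 and 2290 CPM at 30 °C. Haptoglobin, Hp, had 2990, 2960 and 2290 CPM at 22 °C, against 2290, 2240 and 1900 CPM at 30 °C, its closest values almost equal. Lcn2, a marker of inflammation, overlapped at 39.9, 19 and 2.91 CPM at 22 °C and 13.8, 1.13 and 1.93 CPM at 30 °C.

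Among p53 response genes 6 of 22 (27.3%) were higher in every 22 °C mouse and 0 were lower in every one. The median was 0.26, and it was 0.45 without 30 °C replicate 2 and 0.53 with Ai39 mice alone. Bbc3, the pro-apoptotic PUMA, had 16.5, 18.9 and 22 CPM at 22 °C, against 9.25, 12.2 and 7.35 CPM at 30 °C (1 ± 0.24 SE, edgeR adjusted p = 0.0874). The polo-like kinase gene Plk2 had 26.5, 35.9 and 30.4 CPM at 22 °C, against 15.5, 16.1 and 13.6 CPM at 30 °C. Mdm2, which degrades p53, was at 64.2, 61.6 and 60.2 CPM at 22 °C, against 43.3, 54.7 and 58.6 CPM at 30 °C. Cdkn1a, the main p53 target of cell cycle arrest, overlapped at 2.86, 8.81 and 1.47 CPM at 22 °C and 1.7, 0.549 and 1.64 CPM at 30 °C. In the cell cycle list 2 of 37 (5.41%) were higher in every 22 °C mouse, below the background, 1 of them Ccnd1 at 20.5, 18.6 and 11.7 CPM at 22 °C, against 10.1, 0.842 and 6.98 CPM at 30 °C. In that list 0 were lower in every 22 °C mouse and 28 had a positive log2 fold change. Its median was 0.25, and 0.01 to 0.65 with 1 library left out.

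Cold-response and energy genes gave little. Of 14 tested thermogenic and cold-inducible genes 1 (7.14%) was higher in every 22 °C mouse and 2 (14.3%) lower. The cold-inducible RNA-binding protein gene Cirbp overlapped at 27, 31.8 and 32 CPM at 22 °C and 36.9, 29 and 23.7 CPM at 30 °C (log2 fold change 0.02 ± 0.23 SE). Its relative Rbm3 overlapped at 23.7, 25.2 and 16.8 CPM at 22 °C and 26, 21.5 and 21.2 CPM at 30 °C (-0.06 ± 0.23 SE). Ucp1, the uncoupling protein of brown fat, had 0 reads in all 6 livers. Ppargc1a, a coactivator of mitochondrial and gluconeogenic genes, had 8.46, 6.19 and 8.39 CPM at 22 °C, against 8.93, 13.4 and 9.49 CPM at 30 °C. Of 15 renin-angiotensin and natriuretic peptide genes tested 2 (13.3%), Enpep and the aminopeptidase gene Lnpep, were lower in every 22 °C mouse and 0 were higher. The receptor Agtr1a overlapped at 44.5, 49 and 63.5 CPM at 22 °C and 47.7, 42.2 and 45.5 CPM at 30 °C (0.21 ± 0.16 SE). Angiotensinogen, Agt, overlapped too, at 432, 497 and 558 CPM at 22 °C and 435, 603 and 463 CPM at 30 °C (-0.01 ± 0.2 SE). Agrp was at most 0.506 CPM in any of the 6.

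**Figure D4:**
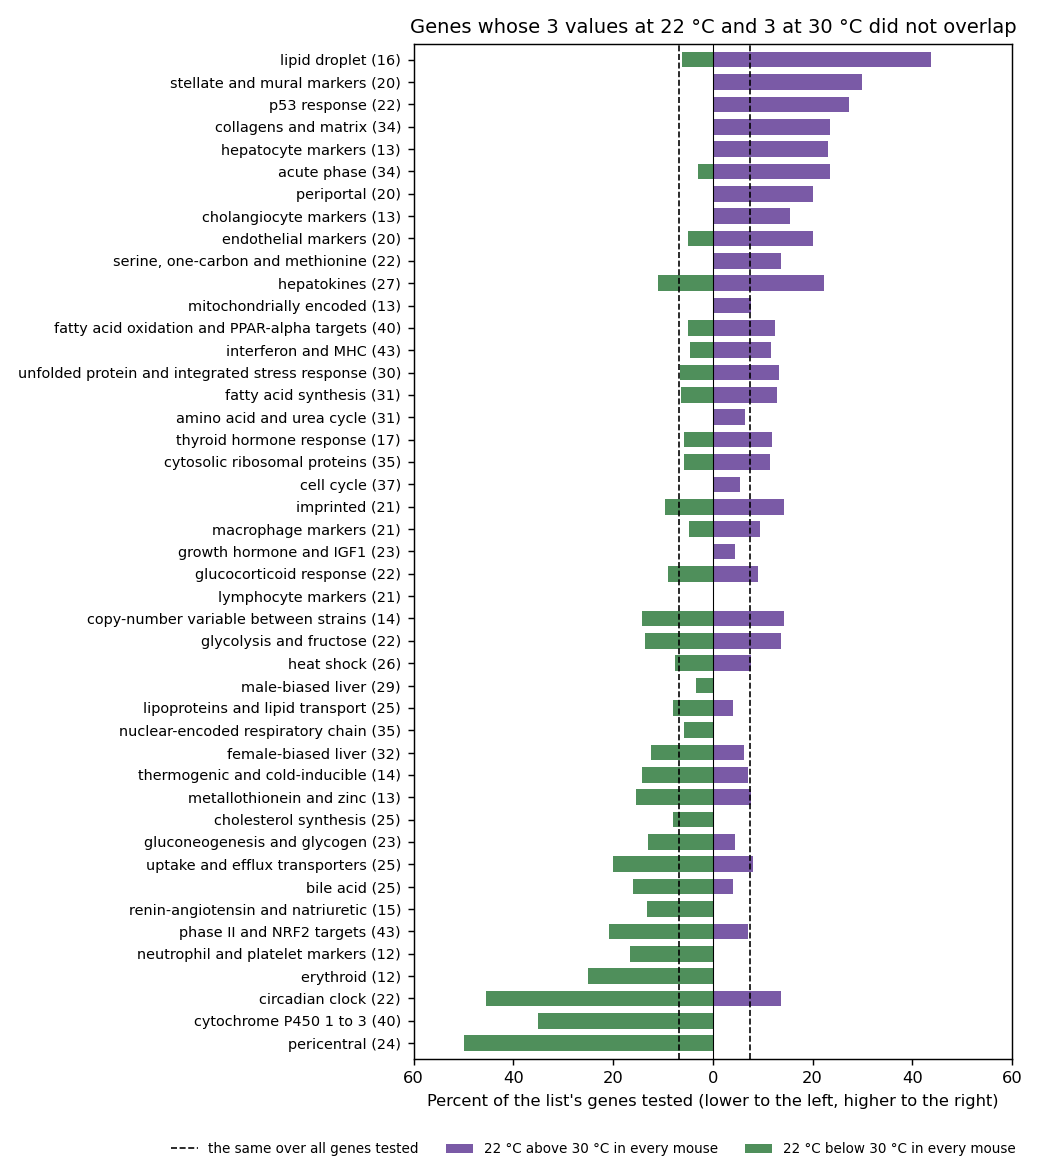
Percent of each list's tested genes whose 22 °C values all lay above (right) or all below (left) the 30 °C values in ablated males, 3 mice at each temperature; dashed lines give the same percent over all genes (7.38% higher, 6.78% lower), numbers in parentheses the genes tested, and lists under 12 genes are left out. The longest bars to the left are pericentral, circadian clock and cytochrome P450 genes, and to the right lipid droplet and stellate markers.

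The 8 called genes were then set beside the same contrast in control males and in ablated females, which share no library with the ablated males. The genes were chosen for passing in ablated males, so smaller values in the other mice follow in part from that choice. In control males 23 genes were called (0.114% of 20213), 19 higher (0.094%) and 4 lower (0.0198%) at 22 °C, and in ablated females 10 (0.0495%), 2 higher and 8 lower. None of the 8 was called in either (edgeR adjusted p of at least 0.147). Mitochondrially encoded genes took 28.8%, 19.5% and 29.6% of reads in control males at 22 °C, and 17% and 23.8% at 30 °C. Control male 1 at 30 °C had 13601 genes with at least 10 reads, the fewest of the 24 libraries. The part of library quality in the control contrast was not tested. Abhd6 averaged 40.6 ± 6.07 CPM in control males at 22 °C and 67.6 ± 0.294 CPM at 30 °C (SD, n = 3 and 2), with a log2 fold change of -0.74 ± 0.23 SE, beside -1.43 in ablated males. Nr1i3 averaged 74.8 ± 15.8 CPM in control males at 22 °C and 99.9 ± 42.2 CPM at 30 °C (-0.42 ± 0.3 SE, beside -1.64). Zap70 stood at 0.95 ± 0.39 in control males and Adh7 at -0.65 ± 0.2, both in the direction of the ablated males. Cd163 averaged 8.02 ± 1.88 CPM at 22 °C and 7.52 ± 0.958 CPM at 30 °C (0.09 ± 0.45 SE). Adamtsl2 averaged 14 ± 2.04 CPM at 22 °C and 13.1 ± 9.38 CPM at 30 °C (0.1 ± 0.37 SE). In ablated females Adamtsl2 averaged 16.7 ± 4.66 CPM at 22 °C and 6.36 ± 1.94 CPM at 30 °C (1.39 ± 0.34 SE). Nxpe2 at -0.67 ± 0.27 and Adh7 at -0.47 ± 0.18 also had the direction of the ablated males there. Abhd6 at 0.28 ± 0.2, Nr1i3 at 0.03 ± 0.27, Cd163 at 0.48 ± 0.4 and Zap70 at -0.62 ± 0.33 had the opposite sign.

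No gene's temperature effect was shown to differ between ablated and control males. The test of that difference called 0 of 20213 genes (0%) by edgeR, with 1653 at an unadjusted p under 0.05, 0 by limma voom and 41 by DESeq2, and the lowest adjusted p by edgeR was 0.266. Among the 8 genes the difference ran from -2.44 ± 0.63 for Cd163 to 1.84 ± 0.5 for Adamtsl2 (log2, SE), with edgeR adjusted p of 0.337 and 0.4. The 3 protein-coding genes of lowest p were Osbp2, Fxyd7 and Pnpla3, each at 0 in both 30 °C control males. Pnpla3, a lipid droplet protein, had 0.535, 0.379 and 0.377 CPM in ablated males at 22 °C and 0.687, 0 and 0.821 CPM at 30 °C, and 0.648, 1.92 and 2.47 CPM in control males at 22 °C. The contrast rests on only 2 control males at 30 °C. Leaving out 1 of them also resets the filter on low counts, so the part of each in the count was not tested.

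Between the sexes 7 genes differed (0.0346%), 4 (0.0198%) with a more negative and 3 (0.0148%) with a more positive effect in ablated males than in ablated females. Abhd6 had log2 fold changes of -1.43 in males and 0.28 in females, a difference of -1.71 ± 0.29 (edgeR, SE, adjusted p = 0.0118). Abhd6 in females was at 54.1, 48.2 and 72 CPM at 22 °C and 51.2, 55.5 and 36.6 CPM at 30 °C, which overlapped. Zap70 had 1.92 in males and -0.62 in females, a difference of 2.54 ± 0.48 (edgeR adjusted p = 0.0254). Its female values overlapped, at 16.6, 7.55 and 5.12 CPM at 22 °C and 12.2, 14.5 and 18.4 CPM at 30 °C. With Ai39 mice alone the differences of Abhd6 and Zap70 were -1.65 and 2.94 and no longer passed (edgeR adjusted p = 0.123 and 0.158). Without 22 °C ablated male 2 none of the 7 passed, and 3 genes did without 22 °C ablated male 1 or without 30 °C ablated male 1.

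**Figure D5:**
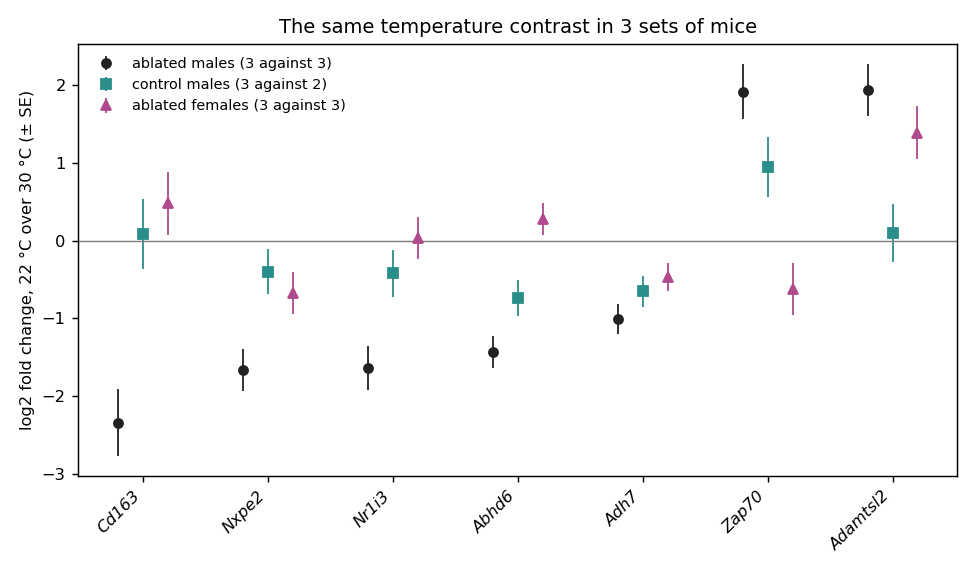
Log2 fold change (22 °C over 30 °C, ± SE) of 7 genes called in ablated males, shown for ablated males, control males and ablated females with the number of mice at 22 °C and at 30 °C in the key. Values in control males lie nearer to 0 for all 7 genes, which follows in part from choosing the genes by their values in ablated males. In ablated females 4 genes (Abhd6, Zap70, Cd163 and, at 0.03, Nr1i3) have the opposite sign.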

How the data were processed

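Liver RNA was polyA-selected and sequenced from 24 mice, per the labels' protocols. Reads were processed with CASAVA, HISAT2 and DESeq2 against GRCm39, per the submitters' processing notes; neither versions, the counting program nor the use of strand is stated there. The authors deposited 3 overlapping tables with raw read counts, FPKM values, signal values (counts divided by a size factor per library) and gene lengths. Only the deposited counts were analysed here. The tables held 25892, 25229 and 25027 genes, shared libraries had 0 differing counts, and joining them gave 27802 genes, with 40326 missing values set to 0, since a table leaves out genes of low total.

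Tests used edgeR 4.0.16 in R 4.3.3 with TMM scaling, the tool's default filter on low counts (minimum count 10, minimum total 15; 20213 genes kept) and a robust quasi-likelihood fit of 8 group means over all 24 libraries with 16 residual degrees of freedom. Benjamini-Hochberg adjusted p under 0.05 was called. Levels are CPM (counts scaled by TMM library size), computed here. On simulated counts for 20213 genes the fit of the ablated male contrast recovered 53.7% of genes changed by 1 on the log2 scale, 95.5% by 2 and 98.5% by 3, with 3 false calls. The changes were placed only in genes above a floor of mean level, and all groups otherwise shared the same mean and spread per gene. No difference of line or sex was simulated, so these shares need not hold in the data. Alternatives used DESeq2 1.42.0, limma 3.58.1 and smaller sample sets. Each smaller set had its filter on low counts and its scaling set anew, and the filter loosens as the smallest group shrinks.

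Genes named by rule were the called ones and, in each direction, the 10 protein-coding genes of lowest p above a floor of mean level. Up to 4 of each list with a called member were added. So were the sex markers and a short set of genes of the angiotensin system, metabolism and cold response. Further list members were named after their values were seen, mostly because their groups did not overlap. The comparison and the gene lists, written from general knowledge, were chosen with earlier results of these data known. Libraries were labelled as separate mice, and p-values measure the spread between them. Counting error alone is small at this depth except for genes of few reads. Results for a few genes are not reported here.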

Additional observations from a re-analysis of the deposited data

Results flagged for a closer look

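The temperature effect (22 °C over 30 °C, log2) differed between ablated males and ablated females in 7 genes by the test of the difference itself (edgeR, Benjamini-Hochberg adjusted p under 0.05), which is what brought those named below here. For Abhd6 the male effect minus the female effect was -1.71. For Zap70 it was 2.54. Both are among the genes called within ablated males.

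A further 4 were not called within ablated males. Elovl6, a fatty acid elongase, differed by -2.84 ± 0.44 (edgeR, SE, adjusted p = 0.0111). Males had 89.8, 106 and 136 CPM at 22 °C, against 206, 170 and 287 CPM at 30 °C, and females had 348, 873 and 273 CPM at 22 °C, against 150, 115 and 153 CPM at 30 °C. Neither sex overlapped, and the orders were opposite. Lrg1, an acute phase glycoprotein, differed by 2.72 ± 0.47 (edgeR, SE, adjusted p = 0.0254). Males had 255, 187 and 226 CPM at 22 °C and 175, 132 and 174 CPM at 30 °C, and females had 104, 72 and 62.1 CPM at 22 °C, against 261, 189 and 682 CPM at 30 °C.

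The unnamed transcript 4930404H11Rik differed by -3.03 (edgeR adjusted p = 0.0254). It had 5.35, 4.17 and 6.85 CPM in males at 22 °C, against 9.98, 31.8 and 18.1 CPM at 30 °C, and 13.5, 16.4 and 14.3 CPM in females at 22 °C, against 5.84, 6.17 and 7.74 CPM at 30 °C. ENSMUSG00000121093 differed by 1.63 (edgeR adjusted p = 0.0254). It had 60.8, 52.3 and 44.7 CPM in males at 22 °C, against 23.9, 28.4 and 27.5 CPM at 30 °C, and 15, 12.7 and 21 CPM in females at 22 °C, against 23.4, 22.9 and 29.7 CPM at 30 °C. Of 140 values of the 7 genes under other settings, 90 kept direction and call, 50 lost the call and 0 reversed, and none of the 7 was called without 22 °C ablated male 2. The 30 °C females were of 2 lines and the 30 °C males of 3. With Ai39 mice alone, which leaves a single 30 °C male, the differences were -1.65 for Abhd6, 2.94 for Zap70, -2.79 for Elovl6, 1.86 for Lrg1, -2.14 for 4930404H11Rik and 1.67 for ENSMUSG00000121093. These 6 kept their direction and lost the call (edgeR adjusted p = 0.123, 0.158, 0.316, 0.176, 0.32 and 0.202, in the same order).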

How the results depend on the processing

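The number of genes called in ablated males was 8 with edgeR and moved widely with the fit: it was 336 with no filter on low counts, 179 with DESeq2, 35 with limma voom, 40 with only the 6 libraries compared, 30 with only the 4 groups of males, 15 with only Ai39 x BAC-AT1A-Cre mice, and 0 to 40 when 1 library was left out. DESeq2 size factors gave the same 8, and all 8 were among the calls without the filter, by DESeq2 and with the 4 male groups. Cd163 and Nxpe2 were not called with voom (limma voom adjusted p = 0.23 and 0.0537). With only the 6 libraries compared Cd163 was not called either (edgeR adjusted p = 0.0822). In control males the count was 178 with no filter, 261 with DESeq2, 6 with voom, 0 with only the groups compared, 3 with Ai39 mice and 0 to 1498 with 1 library left out, the highest without 30 °C control male 2. In ablated females it was 555, 244, 0 with only the groups compared, 2 with Ai39 mice and 0 to 16. For the difference between ablated and control males it was 161 with no filter, 41 with DESeq2 and 0 to 872, and for that between the sexes 397, 184, 44 with only the groups compared and 0 to 15. The cause was not tested.

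Replicate numbers gave no sign of pairing. Deviations of same-numbered mice correlated at 0.05, -0.04 and 0.1, and those of different-numbered mice at -0.13 to 0.1. A pairing that the numbers do not follow was not tested. With the replicate number as a block 13 genes were called in ablated males, 0 in control males and 4 in ablated females, and the log2 fold changes of Agt and Fasn became 0.

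Of 614 values of named genes, 478 kept direction and call, 32 lost the call, 75 gained it and 29 changed sign, all in genes that were not called. With Ai39 mice alone the log2 fold change was 0.12 for Kdm5d, 0.27 for Pck1, 0.62 for Cyp7a1, 0.22 for Igf1, -0.28 for Cirbp, 0.19 for Agt and 0.16 for Fasn. With voom it was 0.14 for Xist and 0.01 for Fasn. With 1 library left out it ran from -0.42 to 0.08 for Pck1, -1.16 to 0.61 for Xist, -0.17 to 0.1 for Rbm3, -5.6 to 0.43 for Agrp, -0.14 to 0.14 for Igf1, -0.12 to 0.2 for Cirbp, -0.11 to 0.14 for Agt and -0.4 to 0.41 for Fasn, and the difference in mitochondrial share from -1.17 to 0.0793 points. Of 735 list medians 697 moved by less than the spread between replicates and 38 by more.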

Other observations

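Stress genes of hepatocytes gave no common direction. Among 30 unfolded protein and integrated stress genes 4 (13.3%) were higher in every 22 °C mouse and 2 (6.67%) lower, with a median log2 fold change of 0.05 (0.16 with Ai39 mice alone), and of 26 heat shock genes 2 (7.69%) were higher and 2 lower. Atf5, a transcription factor of the integrated stress response, had 211, 240 and 182 CPM at 22 °C, against 107, 85.7 and 114 CPM at 30 °C (1.04 ± 0.26 SE, edgeR adjusted p = 0.13). The groups did not overlap.

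Glucocorticoid response genes were split, with 2 of 22 (9.09%) higher and 2 lower. Hsd11b1, which regenerates active glucocorticoid in liver, had 213, 262 and 358 CPM at 22 °C, against 453, 526 and 533 CPM at 30 °C (-0.86 ± 0.23 SE, edgeR adjusted p = 0.156). Each 22 °C value was lower than each 30 °C value. Of 35 nuclear genes of the respiratory chain 0 were higher in every 22 °C mouse and 2 (5.71%) lower, with a median of -0.06.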
